A study of Mus musculus with 2 samples.

Results

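The YAP and TAZ coactivators, a TEAD transcription factor and their best known targets were followed through the cell types of the fibrotic mouse liver. The 8 genes were Yap1, Wwtr1 (which encodes TAZ), Tead1, Ctgf, Cyr61, Amotl2, Ankrd1 and Lats2, chosen by symbol from the 27998 genes of the deposited tables. All 8 were found. Liver nonparenchymal cells, the cells left in suspension after hepatocytes are pelleted, were counted in 2 droplet libraries of C57BL/6 mice, both given CCl4 (carbon tetrachloride, a hepatocyte toxin used to bring about fibrosis) 4 times. The WT library came from wild-type mice. The yap1 library came from mice with floxed Yap1 alleles and Cre driven by the Lyz2 gene, which is active in myeloid cells, so other cell types are not the intended site of deletion. Each library was a sample from 3 mice, and nothing in the tables tells the mice apart. With 1 library per genotype no difference has a replicate check, no p-value is given, and a difference between genotypes cannot be told apart from one between libraries. The labels used here give no age or sex.

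In the Hippo pathway, the Lats kinases phosphorylate YAP and TAZ and hold them in the cytoplasm. Unphosphorylated YAP and TAZ enter the nucleus, bind TEAD factors and activate genes such as Ctgf and Cyr61, which encode secreted matrix proteins, as well as Amotl2 and Lats2, which restrain YAP in turn. In the liver the pathway is known for limiting organ size and for its activity in bile duct cells, stellate cells and endothelium.

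Levels are raw UMI counts (unique molecules) summed over the cells of a class and given as CPM, counts per 1000000 UMIs of that class. All intervals are exact, at 95%, and cover counting error only. Classes are named after marker lists and are groups of cells carrying those markers, called here endothelial-gated and so on. The WT library held 5269 barcodes with 30386545 UMIs and the yap1 library 4731 with 34234353, of which 4847 and 4149 passed the filters. There were 5 barcode sequences that occurred in both libraries, 3 of them after filtering. Of the passed barcodes, 149 and 108 carried markers of unrelated classes and 175 and 123 carried too few, and these were left out of the classes. The endothelial class held 450 WT and 327 yap1 cells, with all 10 endothelial markers detected in each, median depths of 2376 and 2191 UMIs, and median mitochondrial percentages of 8.57 and 9.88. Summed markers of other cells in this class were, in WT and yap1, 316 and 206 CPM for the Kupffer list, 531 and 451 CPM for the mesenchymal list, 165 and 161 CPM (with Cps1 and Hnf4a at 0 in yap1) for the hepatocyte list and 5.10 and 0.985 CPM for the cholangiocyte list, whose Epcam, Krt19, Krt7, Sox9 and Cldn7 were at 0 in both. Their part in the endothelial values was not tested.

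**Figure D1:**
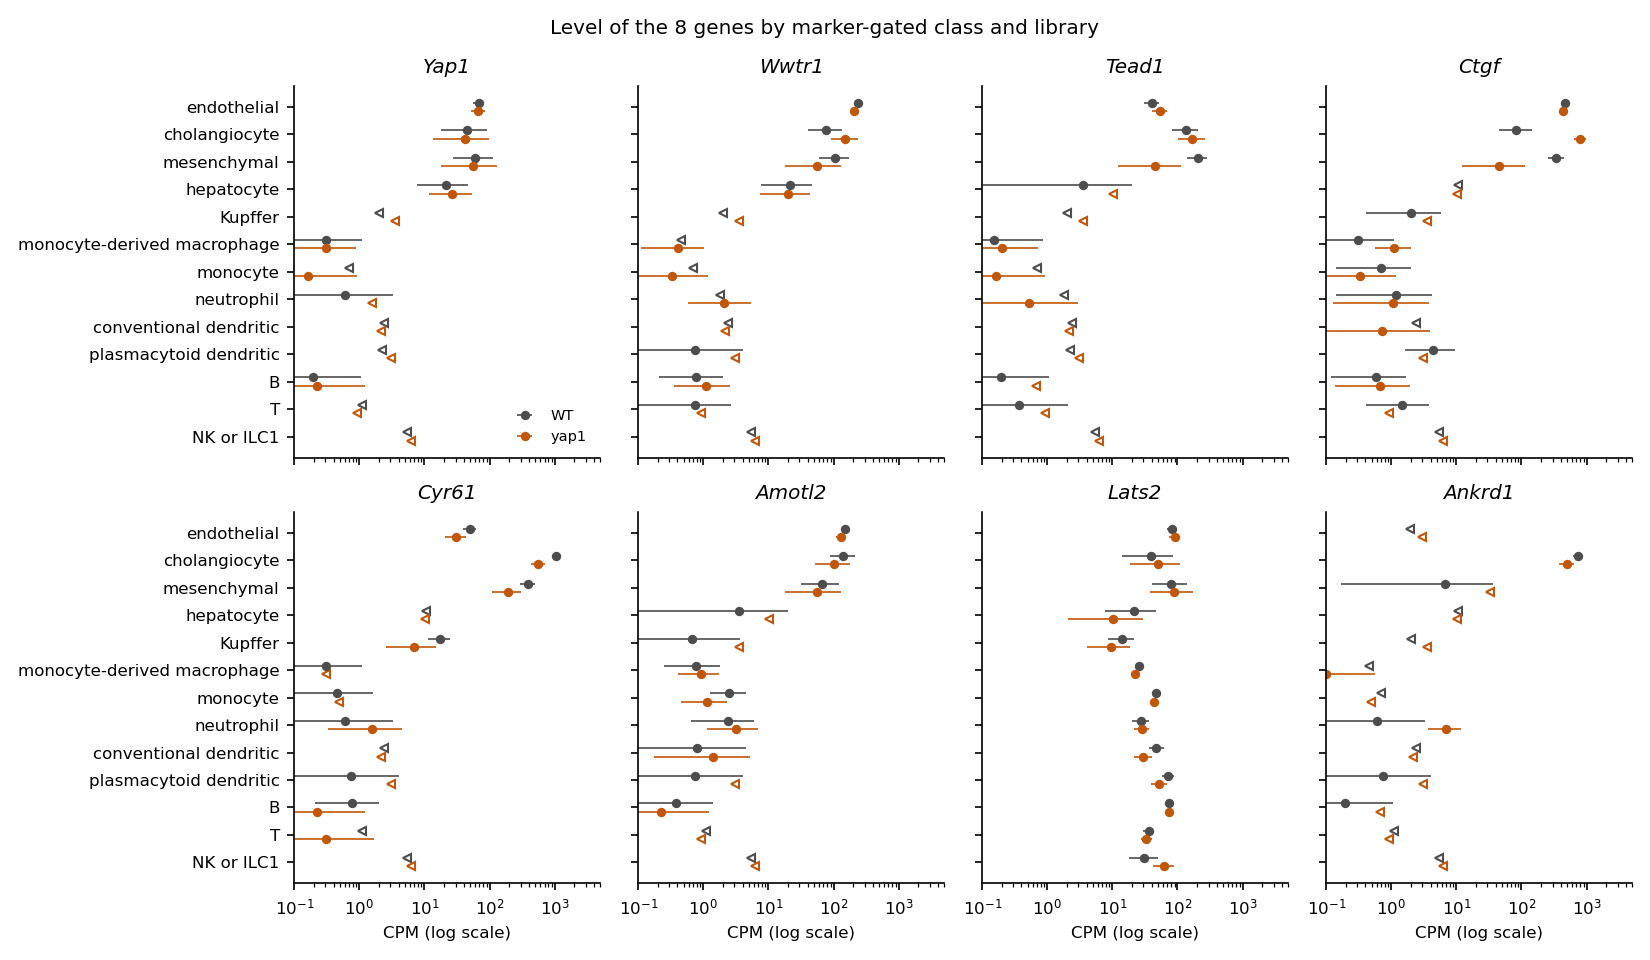
Level of each gene (CPM, log axis) in 13 marker-gated classes, WT in grey and yap1 in orange. Points are class sums with exact 95% Poisson intervals cut at the left edge, and open triangles mark a count of 0 at the level that 3 counts would give. Lats2 lay within about 1 order of magnitude across the classes, Ankrd1 was concentrated in cholangiocyte-gated cells, and the remaining genes stood highest in endothelial, cholangiocyte and mesenchymal cells.

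Sequence from the promoters of these genes shows where the binding letters of TEAD occur. The letters GGAATG, or CATTCC on the other strand, were searched in the 250 bases before each RefSeq start site (build GRCm38.p6, which is mm10). Sequences were matched for 6 of the 8 genes. The letters were present before at least 1 start site of 5 of these 6 genes, in 6 of their 8 windows, and in 4153 of 32851 windows of all genes, 12.6%. The 2 Wwtr1 windows overlap and hold the same match, so it is counted in both. The Cyr61 window is shown whole because Cyr61 is the one of the 8 genes whose endothelial ratio between the libraries lay farthest from 1. It lies on the minus strand at chr3:145649986-145650235, ends at the start site, holds no annotated exon, and has the motif in capitals 103 bases before the start.
Cyr61: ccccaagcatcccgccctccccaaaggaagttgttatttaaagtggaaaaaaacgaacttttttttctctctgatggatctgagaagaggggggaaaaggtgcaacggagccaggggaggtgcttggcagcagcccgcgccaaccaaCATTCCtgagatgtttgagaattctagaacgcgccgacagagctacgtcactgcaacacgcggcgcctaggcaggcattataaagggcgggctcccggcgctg

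The other matches are shown as 30 bases each, with the motif in capitals, to compare what surrounds it. The capitals begin 141 bases before the start of Yap1, 136 bases before the first start site of Wwtr1, 65 bases before that of Amotl2, and 210 and 123 bases before that of Ankrd1.
Yap1: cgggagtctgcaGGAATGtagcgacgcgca
Wwtr1: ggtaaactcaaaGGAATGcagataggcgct
Amotl2: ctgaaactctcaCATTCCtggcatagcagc
Ankrd1, first: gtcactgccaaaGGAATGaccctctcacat
Ankrd1, second: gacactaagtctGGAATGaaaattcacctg
No match lay in the windows of either Lats2 start site. Annotated exon bases of either strand lay in the windows of Yap1, Amotl2 and Ankrd1 and in the second of Wwtr1. The Amotl2 and Ankrd1 matches lie before the RefSeq start sites but inside the GENCODE spans given for these genes below. A match describes letters and is not a measured binding site.

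Yap1, the targeted gene (chr9:7931999-8004596), was close to absent from the myeloid classes. The level of Lyz2 itself in each class is not given here. Across Kupffer, monocyte-derived macrophage, monocyte, neutrophil and conventional dendritic cells together, 3 UMIs were counted in 1883 WT cells and 4 UMIs in 1901 yap1 cells. That is 0.195 CPM (0.0401 to 0.569) and 0.197 CPM (0.0538 to 0.505), with intervals that overlap for most of their length. Counts of 3 and 4 UMIs cannot check the deletion, and the labels do not say where in Yap1 the loxP sites lie. Most Yap1 UMIs lay in endothelial cells, with 107 of 142 WT UMIs and 67 of 100 yap1 UMIs. Its endothelial level was 68.2 CPM (55.9 to 82.4) in WT and 66.0 CPM (51.1 to 83.8) in yap1, a ratio of yap1 over WT of 0.967 (0.702 to 1.33). Levels in the rarer classes had intervals that overlapped the endothelial ones, at 59.2 CPM (27.0 to 112) and 55.7 CPM (18.1 to 130.0) in mesenchymal and 45.1 CPM (18.1 to 92.8) and 42.3 CPM (13.7 to 98.7) in cholangiocyte-gated cells. Hepatocyte-gated cells stood at 21.3 CPM (7.80 to 46.3) and 26.9 CPM (11.6 to 53.0). The share of endothelial cells with a Yap1 UMI was 16.9% and 17.1%, with at most 4 UMIs in a cell. In B cells, which serve as the level of free RNA, 1 UMI was counted in 1285 WT cells (median 3659 UMIs) and 1 in 924 yap1 cells (median 4415).

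Wwtr1 (chr3:57455649-57575910) had the same cell range. Endothelial cells held 377 of 453 WT UMIs and 209 of 269 yap1 UMIs. The level was 240.3 CPM (217 to 266) and 206 CPM (179 to 236), and the ratio of 0.857 (0.720 to 1.02) had an interval that reached 1. Without the yap1 cell with most Ctgf, the Wwtr1 ratio was 0.836 with an interval just short of 1 (0.701 to 0.994). In the periportal subset described below the Wwtr1 ratio was 0.736 (0.574 to 0.938), with an interval that left out 1. It was 0.852 (0.607 to 1.18) in the pericentral subset and 1.45 (0.853 to 2.48) in cells of no subset. A Wwtr1 UMI was present in 43.8% of WT and 37.3% of yap1 endothelial cells, and after thinning each cell to 1000 UMIs in 19.7% (15.7 to 24.2) and 20% (15.3 to 25.4), so the shares lay within each other's intervals at equal depth. The thinning left out 90 and 67 shallower cells. In the 5 myeloid classes together Wwtr1 had 0 UMIs in WT, which allows up to 3, and 10 UMIs in 10 different yap1 cells, a level of 0.493 CPM (0.237 to 0.907). In yap1 B cells the level of Wwtr1 was 1.11 CPM (0.36 to 2.58), so the myeloid level was not above that of B cells.

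Tead1, which encodes a DNA-binding partner of YAP and TAZ (chr7:112679318-112906807), was shared by endothelial and rarer stromal and epithelial cells. Endothelial cells held 63 UMIs in WT and 54 in yap1, or 40.2 CPM (30.9 to 51.4) and 53.2 CPM (40.0 to 69.4), which gives a ratio of 1.32 (0.903 to 1.94). After thinning to 1000 UMIs only 13 and 6 UMIs were left, with a ratio of 0.639. The direction of the difference was therefore not settled. The 15 WT and 10 yap1 cholangiocyte-gated cells, which carried all 8 markers of the cells that line bile ducts, held 21 and 20 Tead1 UMIs, 135 CPM (83.7 to 207) and 169 CPM (103 to 261). The 20 WT and 9 yap1 mesenchymal cells, which include stellate cells and fibroblasts by their 11 markers, held 31 and 4 UMIs, with 14 of the 31 in 1 cell. Myeloid cells together held 1 and 4 UMIs.

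Ctgf (chr10:24595442-24598683, now also called Ccn2), a matrix protein and a standard readout of YAP activity, was carried by fewer endothelial cells in yap1 than in WT. A Ctgf UMI was present in 112 of 450 WT cells, 24.9%, and in 44 of 327 yap1 cells, 13.5%. The pooled levels were closer than the shares, since 736 WT UMIs and 434 yap1 UMIs gave 469 CPM (436 to 504) and 427 CPM (388 to 470), which gives a ratio of 0.911 (0.807 to 1.03). Of the 434 yap1 UMIs, 212 lay in 1 cell, 48.9%, while the next cell held 25. The highest WT cells held 56 and 51. Without that 1 yap1 cell, 222 UMIs were left, a level of 222 CPM and a ratio of 0.473 (0.405 to 0.550). Without the highest cell of each library the ratio was 0.509 (0.435 to 0.593). Under a stricter filter of 1000 UMIs, 500 genes and 10% mitochondrial UMIs, which kept 553 and 372 Ctgf UMIs, the 1 cell included, it was 1.21. The shares after thinning to 1000 UMIs were 15% (11.5 to 19.1) and 9.23% (6.00 to 13.4), and after thinning to 500 UMIs they were 11.8% (8.95 to 15.1) and 3.98% (2.13 to 6.70). In B cells 0.233% and 0.325% of cells had a Ctgf UMI, so the endothelial shares lay far above free RNA.

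**Figure D2:**
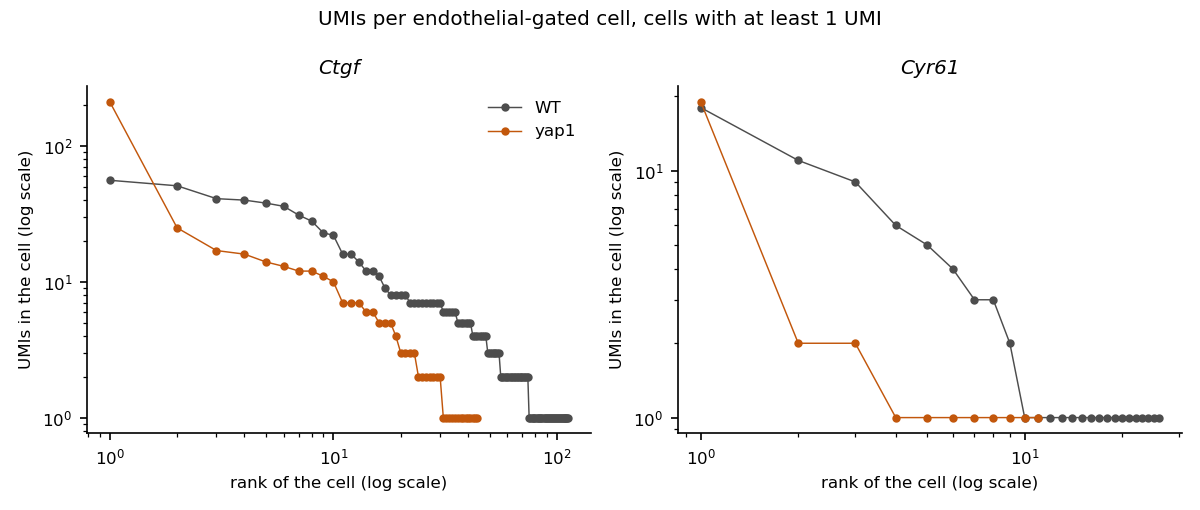
Ctgf and Cyr61 UMIs in each endothelial-gated cell that has at least 1, against the rank of the cell, on log axes. The yap1 curve for Ctgf starts at 212 UMIs and drops to 25 at the next cell, below the WT curve, and for Cyr61 it starts at 19 and drops to 2.

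The yap1 cell with most Ctgf was a deep cell of 14550 UMIs and an endothelial cell by its own markers. It held 85 UMIs of Ptprb, 65 of Eng and 24 of Kdr, and none of the sinusoidal markers Clec4g and Stab2. It held 78 UMIs of Selp, 62 of Edn1 and 33 of Vwf, genes of larger vessels. Of the other genes on the large-vessel marker list, Cd34 had 1 UMI and Ly6c1, Ly6a and Podxl had 0. On the pericentral list Rspo3 had 31 UMIs and Fabp4 16, while Wnt2 and Wnt9b had 0. Of the endothelial list, Gpr182 had 9 UMIs and Oit3 had 2. The cell also held 101 UMIs of Jun, 86 of Fos and 27 of Fosb, which are early response genes. All 8 cholangiocyte markers were at 0 in it, and of the 11 mesenchymal markers only Bgn was present, with 30 UMIs. Some of these genes were looked up after the values of that cell were seen. The cell held 19 of the 31 Cyr61 UMIs of its class but 1 Yap1 UMI and 1 Tead1 UMI.

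Split by marker lists for the zones of the liver lobule, the summed Ctgf level was lower in yap1 in both kinds of sinusoidal cell, but in pericentral cells this turned on the cells that also held a large-vessel gene. Pericentral cells, which lie next to the central vein, numbered 124 in WT and 81 in yap1 and held 248 and 37 Ctgf UMIs, 416 and 114 CPM, a ratio of 0.273 (0.188 to 0.386). Those UMIs lay in 26 and 9 cells, and the highest WT cells held 51 and 40 of them. Periportal cells, next to the portal vein, numbered 213 and 163 and held 426 and 169 UMIs, 551 and 299.9 CPM, a ratio of 0.544 (0.453 to 0.652). A Ctgf UMI was present in 30.5% and 18.4% of the periportal cells. Of the WT Ctgf UMIs of the whole endothelial class, 452 of 736 lay in the 98 cells with a UMI of Vwf, Selp or Edn1, and of the yap1 UMIs 268 of 434 lay in 47 such cells. These cells were deep, with medians of 5194 and 4494 UMIs against 1730 and 1838 in the others. In pericentral cells they numbered 49 in WT and 25 in yap1 and held 240 of the 248 and 15 of the 37 Ctgf UMIs. In the remaining pericentral cells 8 WT and 22 yap1 UMIs were left, and the ratio turned to 3.94 (1.69 to 10.3). Of those 22 yap1 UMIs, 16 lay in 1 cell, so the turn above 1 rested on few cells. In periportal cells without them 239 and 137 UMIs were left, with a ratio of 0.670 (0.539 to 0.831). The part of these cells in the difference was not tested further. Among 84 and 66 endothelial cells in no subset, which were shallow at medians of 895.5 and 889 UMIs, Ctgf had 32 and 7 UMIs, the 7 in 1 cell. Large-vessel cells were few, 29 and 17, and held 30 and 221 UMIs, 212 of the latter in the cell described above. Depth was close between libraries in the sinusoidal subsets, at medians of 3639 and 3405 UMIs for pericentral and 2796 and 2694 for periportal cells.

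Cyr61 (chr3:145646976-145649981, also called Ccn1), a secreted protein that acts on integrins, stood lower in yap1 endothelium. Endothelial cells held 78 WT UMIs in 26 cells and 31 yap1 UMIs in 11 cells. The top WT cells held 18, 11 and 9 UMIs, and the top yap1 cell held 19. The level was 49.7 CPM (39.3 to 62.1) and 30.5 CPM (20.7 to 43.3), which gives a ratio of 0.614 (0.391 to 0.942). Without the yap1 cell with most Ctgf, and with all WT cells kept, 12 yap1 UMIs were left and the ratio was 0.241 (0.1195 to 0.446). Without the 5 cells with most Cyr61 of each library, 29 and 6 UMIs were left, with a ratio of 0.321. Without the cells that held Vwf, Selp or Edn1, which carried 65 of the WT and 22 of the yap1 UMIs, 13 and 9 UMIs were left, with a ratio of 0.871 (0.329 to 2.20). That interval contains 1 and also 0.614, so these few UMIs cannot show whether the lower level rested on those cells. The 3 genes were picked after the data were seen. In pericentral cells 50 UMIs in 12 WT cells stood against 3 UMIs in 3 yap1 cells, and in periportal cells 26 UMIs stood against 8, with ratios of 0.110 (0.0219 to 0.339) and 0.422 (0.165 to 0.960). Of the 50 pericentral WT UMIs, 18 and 11 lay in 2 cells. Of the pericentral UMIs, 48 in WT and 1 in yap1 lay in cells with one of those 3 genes. After thinning to 1000 UMIs only 9 and 2 UMIs were left.

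Of the 7 genes with at least 20 endothelial UMIs, 1 was past 1.5-fold lower in yap1 (Cyr61) and 0 were past it in the other direction. Over all 8962 genes with that many UMIs, 9.47% were past 1.5-fold lower and 6.33% higher. Without the yap1 cell with most Ctgf, Ctgf and Cyr61 were both past it, against 10% of all genes lower and 6.17% higher. That cell was chosen for its Ctgf. Without the cell with most Ctgf of each library, the ratios of Ctgf and Cyr61 were 0.509 and 0.240. With 7 genes, 1 gene is a larger share than this background, so the counts alone say little about the group.

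**Figure D3:**
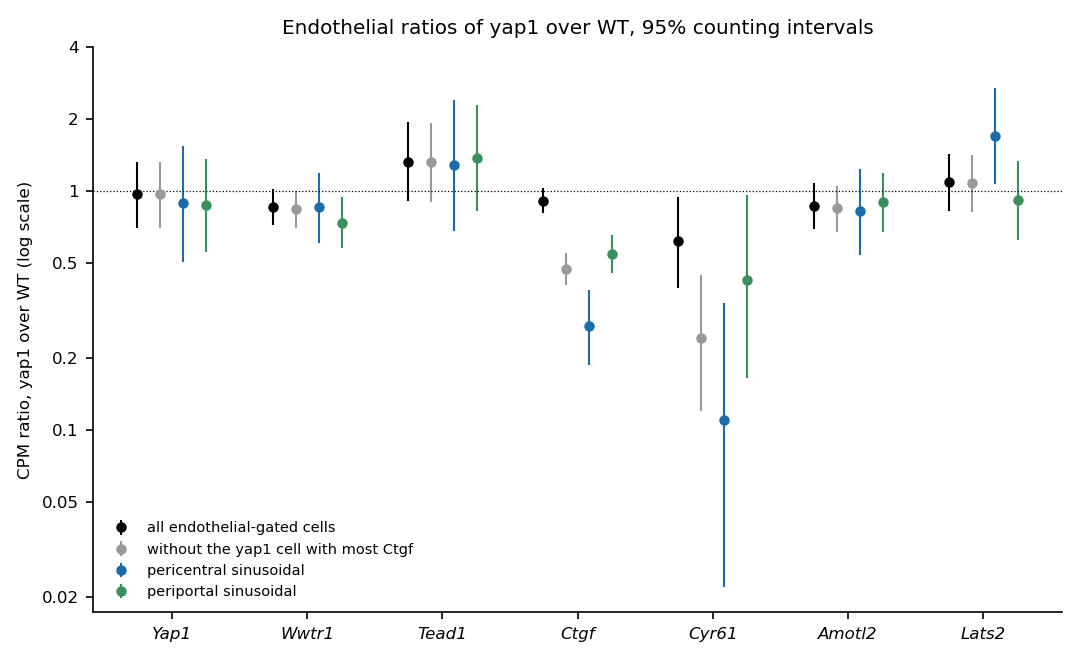
Ratio of yap1 over WT in CPM (log axis) for 7 genes in endothelial-gated cells, in all of them, without the yap1 cell with most Ctgf, and in the pericentral and periportal subsets. Bars are 95% counting intervals. Ctgf and Cyr61 lie below 1 in both subsets, at 0.273 and 0.544 and at 0.110 and 0.422, all cells included, while Yap1, Tead1 and Amotl2 have intervals that include 1 throughout.

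Amotl2, a scaffold protein of cell junctions that binds and restrains YAP (chr9:102716672-102733418), was an evenly spread endothelial transcript. It had 234 WT UMIs in 142 cells and 131 yap1 UMIs in 86 cells, with at most 7 in a cell. The level was 149 CPM (131 to 170) and 129 CPM (108 to 153), which gives a ratio of 0.865 (0.693 to 1.08). Pericentral cells held 80 WT and 36 yap1 UMIs and periportal cells 130 and 85, with ratios whose intervals included 1. A difference of Amotl2 in the sinusoidal subsets of the size seen for pericentral Ctgf, 0.273, lay outside these intervals. The periportal Ctgf ratio of 0.544 lay inside the pericentral Amotl2 interval (0.539 to 1.23) and outside the periportal one (0.6745 to 1.19). Myeloid classes together held 22 and 24 Amotl2 UMIs, 1.43 CPM (0.895 to 2.16) and 1.18 CPM (0.759 to 1.76).

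Cyr61 was also found in Kupffer cells, the resident macrophages of the liver. There were 26 UMIs in 12 of 391 WT cells and 6 UMIs in 5 of 197 yap1 cells, 17.1 CPM (11.2 to 25.0) and 7.02 CPM (2.58 to 15.3), which gives a ratio of 0.411 (0.138 to 1.02). The Kupffer cells with a Cyr61 UMI were deep, with medians of 12072 and 18571 UMIs against 2063 and 2730 in the others. Summed endothelial markers in them were 632 and 731 CPM, against 425 and 516 CPM in the other Kupffer cells and 14975 and 19724 CPM in endothelial cells with a Cyr61 UMI. The WT Kupffer cells with Cyr61 held 26 Cyr61 and 2 Ctgf UMIs, whereas the endothelial cells with Cyr61 held 78 Cyr61 and 219 Ctgf UMIs. Cholangiocyte markers were at 0 in the Kupffer cells with Cyr61 of both libraries. Whether these UMIs came from the Kupffer cells was not tested.

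Ctgf was near absent from myeloid cells, and Cyr61 outside Kupffer cells as well. Ctgf had 10 UMIs in WT and 16 in yap1 over the 5 myeloid classes, 0.649 CPM (0.311 to 1.19) and 0.789 CPM (0.451 to 1.28), which gives a ratio of 1.22 (0.519 to 2.998). Of these, monocyte-derived macrophages held 2 UMIs in 558 WT cells and 11 UMIs in 652 yap1 cells, in 2 and 7 cells. At 0.305 CPM (0.0369 to 1.10) and 1.11 CPM (0.552 to 1.98) these levels lay close to the 0.579 and 0.665 CPM of B cells. Cyr61 had 31 and 9 UMIs over the 5 classes, a ratio of 0.221 (0.0924 to 0.475), and the Kupffer cells above held 26 and 6 of them.

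Ankrd1, a nuclear and sarcomeric ankyrin-repeat protein and a YAP target (chr19:36111961-36120099), marked cholangiocyte-gated cells. They held 116 of 121 WT UMIs and 59 of 74 yap1 UMIs, though they were 15 and 10 cells. The UMIs lay in 9 of 15 WT and 5 of 10 yap1 cells, and the top cells held 75 and 24 in WT and 30 and 18 in yap1. No Ankrd1 UMI was found in 450 WT and 327 yap1 endothelial cells. Of the remaining yap1 UMIs, 13 were in 1 neutrophil-gated barcode of 7441 UMIs. That barcode held 7 of the 8 cholangiocyte markers, with 5 UMIs of Krt18 and 3 each of Krt8 and Tm4sf4, together with neutrophil genes (118 UMIs of S100a9). It was looked up after its value was seen.

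The cholangiocyte-gated cells carried all 8 genes, and no ratio is given for so few cells. Cyr61 was found in 14 of 15 WT cells with 166 UMIs and in 7 of 10 yap1 cells with 66, or 1068 CPM (912 to 1244) and 558 CPM (432 to 710). The WT UMIs were spread, with 38 and 25 in the top cells, while in yap1 1 cell held 31. Ctgf stood the other way, with 13 UMIs in 7 WT cells and 94 in 6 yap1 cells, of which 54 and 30 lay in 2 cells. Wwtr1 had 12 and 18 UMIs, Amotl2 22 and 12, Yap1 7 and 5, and Lats2 6 and 6. These cells had median depths of 10747 and 12172 UMIs and also carried summed macrophage-list markers of 32393 and 22060 CPM and hepatocyte-list markers of 11823 and 11943 CPM. The macrophage list holds Spp1, which bile duct cells also express, and the part of other cells in these values was not tested.

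**Figure D4:**
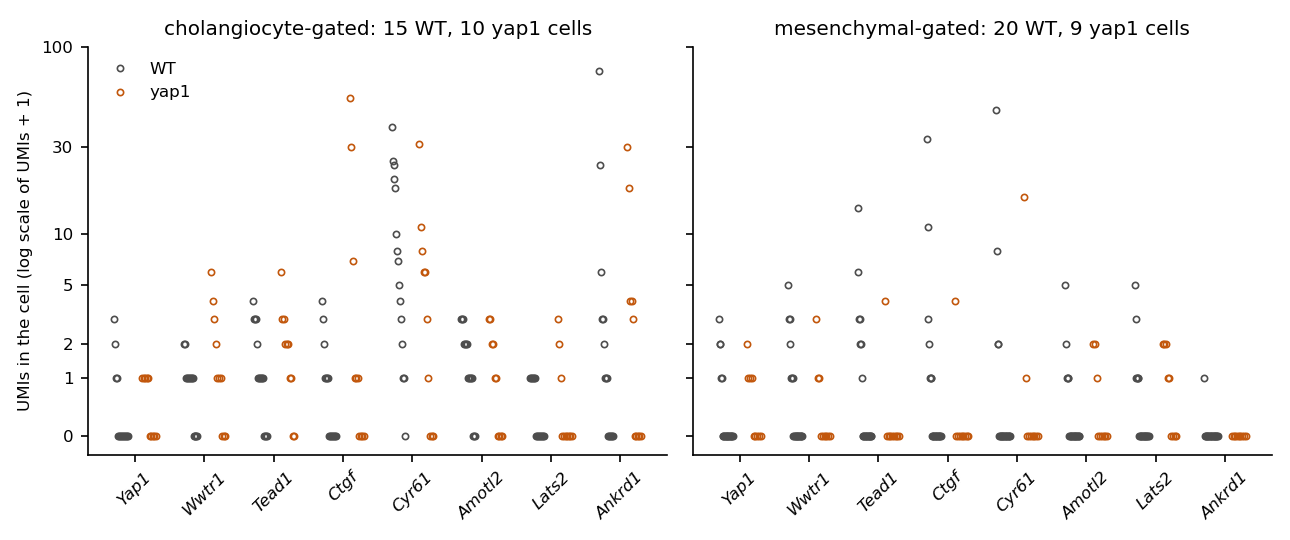
UMIs of each gene in every cholangiocyte-gated and mesenchymal-gated cell, on a log scale of UMIs + 1, WT in grey and yap1 in orange. Ankrd1 is present in cholangiocyte-gated cells and nearly absent from mesenchymal ones, and single cells of up to 75 UMIs carry much of each sum.

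Mesenchymal cells held Ctgf and Cyr61 in few cells. Ctgf had 52 UMIs in 7 of 20 WT cells, 33 of them in 1 cell, and 4 UMIs in 1 of 9 yap1 cells. Cyr61 had 59 UMIs in 4 WT cells, 47 in 1 cell, and 17 in 2 yap1 cells, 16 in 1 cell. Wwtr1 had 16 and 5 UMIs, Lats2 12 and 8, Amotl2 10 and 5, and Yap1 9 and 5. Median depths were 1694 and 1714 UMIs, so a count of 0 in most of these cells says little about the genes.

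Lats2, the kinase that phosphorylates YAP and is itself a YAP target (chr14:57689662-57758388), differed from the other 7 genes in its range. It was the only one of the 8 with UMIs in each of the 11 compared classes of both libraries. Of 1375 WT and 1332 yap1 UMIs, endothelial cells held 131 and 92. In the order of the WT levels, endothelial cells stood at 83.5 CPM (69.8 to 99.1) and 90.6 CPM (73.0 to 111). B cells stood at 74.7 CPM (67.5 to 82.6) and 73.6 CPM (65.9 to 81.9), and plasmacytoid dendritic cells at 72.1 CPM (58.5 to 87.9) and 52.3 CPM (39.1 to 68.6). The WT intervals of these first 3 classes overlapped. Conventional dendritic cells stood at 47.5 and 30 CPM, monocytes at 46.2 and 44.3 CPM and T cells at 36.2 and 33.1 CPM. NK or ILC1 cells stood at 30.98 and 61.3 CPM, neutrophils at 27.2 and 28.3 CPM, monocyte-derived macrophages at 25.9 and 22.4 CPM, and Kupffer cells at 13.8 and 9.36 CPM. Monocytes at 46.2 CPM (40.0 to 53.0) lay above monocyte-derived macrophages at 25.9 CPM (22.2 to 30.1) beyond their intervals in WT, and likewise in yap1, at 44.3 CPM (39.2 to 49.9) and 22.4 CPM (19.6 to 25.6). Hepatocyte-gated cells held 6 and 3 UMIs, 21.3 and 10.1 CPM.

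Between the libraries, the interval of the Lats2 ratio included 1 in 8 of the 10 compared classes with at least 20 UMIs. In the 5 myeloid classes together, 499 WT and 600 yap1 UMIs gave 32.4 CPM (29.6 to 35.4) and 29.6 CPM (27.3 to 32.1), which gives a ratio of 0.914 (0.810 to 1.03). In endothelial cells the ratio was 1.09 (0.822 to 1.43), or 0.748 with cells weighted equally, with 1.70 (1.07 to 2.69) in the pericentral and 0.915 (0.621 to 1.34) in the periportal subset. After thinning to 500 UMIs, 6.22% (4.17 to 8.87) of WT and 1.53% (0.498 to 3.53) of yap1 endothelial cells had a Lats2 UMI. After thinning to 1000 UMIs the shares were 10% (7.10 to 13.6) and 7.69% (4.76 to 11.6). The direction of the endothelial difference was therefore not settled. Of these 10 classes, 1 was past 1.5-fold higher, NK or ILC1 cells, with 17 and 30 UMIs and a ratio of 1.98 (1.06 to 3.82). In the other direction 1 class was past it, conventional dendritic cells, with 59 and 42 UMIs and a ratio of 0.631 (0.415 to 0.954). With classes taken from clusters their ratio was 0.817, from 101 and 87 UMIs, and no longer past 1.5-fold, and after thinning 8 and 2 UMIs were left. Kupffer cells, at 0.678 (0.260 to 1.59) from 21 and 8 UMIs, lay just inside 1.5-fold and passed it under several alternatives, such as 0.632 under the stricter filter. Over all genes of NK or ILC1 cells, 10.6% were past 1.5-fold higher and 10.1% lower, and in conventional dendritic cells 8.83% and 10.1%. In the other classes of this count the shares of all genes higher and lower were 5.82% and 4.89% in B cells, 6.09% and 6.17% in T cells, 6.71% and 6.02% in monocytes, and 9.57% and 10.3% in Kupffer cells. They were 21.9% and 5.47% in neutrophils and 6.92% and 8.72% in plasmacytoid dendritic cells. In neutrophils the median log2 ratio of all genes was 0.22, and the Lats2 ratio of 1.04 (0.687 to 1.57) lay below that median, with an interval that contained it.

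The wider pathway was read in endothelial cells from 2 lists, 34 Hippo pathway genes and 22 TEAD target genes, which hold members of the 8. Of the Hippo genes, 29 had at least 20 UMIs, 16 of them higher and 13 lower in yap1. The median log2 ratio was 0.01, beside -0.04 over all 8962 genes, of which 45.5% were higher. Past 1.5-fold higher were 2 of the 29, close to the 6.33% of all genes, and 0 were past it lower, against 9.47% of all genes. Both encode TEAD factors: Tead2, with 27 and 28 UMIs and a ratio of 1.60 (0.910 to 2.83), and Tead4, with 11 and 17 UMIs and 2.39 (1.06 to 5.64), named after its value was seen. Rassf1, a scaffold that activates the upstream kinases, had 115 and 50 UMIs and a ratio of 0.672 (0.472 to 0.944). Ptpn14, a phosphatase that binds YAP, had a ratio of 1.27 (0.825 to 1.95).

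Of the TEAD targets, 14 had at least 20 UMIs, 5 higher and 9 lower, with a median log2 ratio of -0.11 (0.12 under the stricter filter and -0.40 after thinning to 1000 UMIs). Past 1.5-fold were 2 higher and 2 lower, against 6.33% of all genes higher and 9.47% lower. Higher were Axl, a receptor tyrosine kinase, at 1.60 (0.901 to 2.86), and Gadd45a, a stress response gene, at 1.66 (0.940 to 2.95), both with intervals that included 1. Lower were Cyr61 and Igfbp3, an IGF-binding protein with 28 WT UMIs, 25 of them in 1 cell, and 0 in yap1. Tgfb2, a growth factor, had a ratio of 0.730 (0.384 to 1.33). Without the yap1 cell with most Ctgf, 5 of the 14 were past 1.5-fold lower (Ctgf, Cyr61, Igfbp3, Tgfb2 and Rbms3) and 2 higher, and the median was -0.23 beside -0.04 over all genes. The shares of all genes past 1.5-fold were then 10% lower and 6.17% higher. That cell was chosen for its Ctgf and no WT cell was left out in return. The lower Ctgf and Cyr61 values in yap1 were therefore in part built in by that choice.

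Early response genes were counted beside the targets, because Ctgf and Cyr61 also respond to stimuli within minutes. Of 18 such genes 17 had at least 20 UMIs, 3 higher and 14 lower in yap1, with a median of -0.23. Of all genes, 45.5% were higher in yap1. Past 1.5-fold lower were 3 of them (Egr1, Ier3 and Jun), and 0 were past it higher, against 9.47% of all genes lower and 6.33% higher. Egr1 had 129 UMIs in 44 WT cells but 33 in 15 yap1 cells, at a ratio of 0.395 (0.261 to 0.583). Ier3 had a ratio of 0.570 (0.449 to 0.720), Jun 0.651 (0.570 to 0.741) and Junb 0.701 (0.617 to 0.795). Without the yap1 cell with most Ctgf, 16 of 17 were lower and the median was -0.32. That cell held 101 UMIs of Jun, 63 of Junb and 46 of Zfp36, so leaving it out lowers these genes in yap1. No WT cell was left out in return, and the WT cell with 31 of the 129 Egr1 UMIs stayed in. In endothelial cells Cyr61 and most early response genes thus stood lower in yap1. The pooled Ctgf ratio of 0.911 (0.807 to 1.03) had an interval that included 1, and it was 1.21 under the stricter filter. In several other classes the early response list ran the other way, with 18 of 18 genes higher in yap1 in B cells and 14 of 18 in monocytes. The count was 14 of 17 in both neutrophils (where the median of all genes was 0.22) and plasmacytoid dendritic cells, while in Kupffer cells 12 of 17 were lower. The share of all genes higher in yap1 was 47.5% in B cells, 46.2% in monocytes and 68.8% in neutrophils. It was 46.7% in plasmacytoid dendritic cells and 51.2% in Kupffer cells. The part of the early response in the Ctgf and Cyr61 values was not tested.

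**Figure D5:**
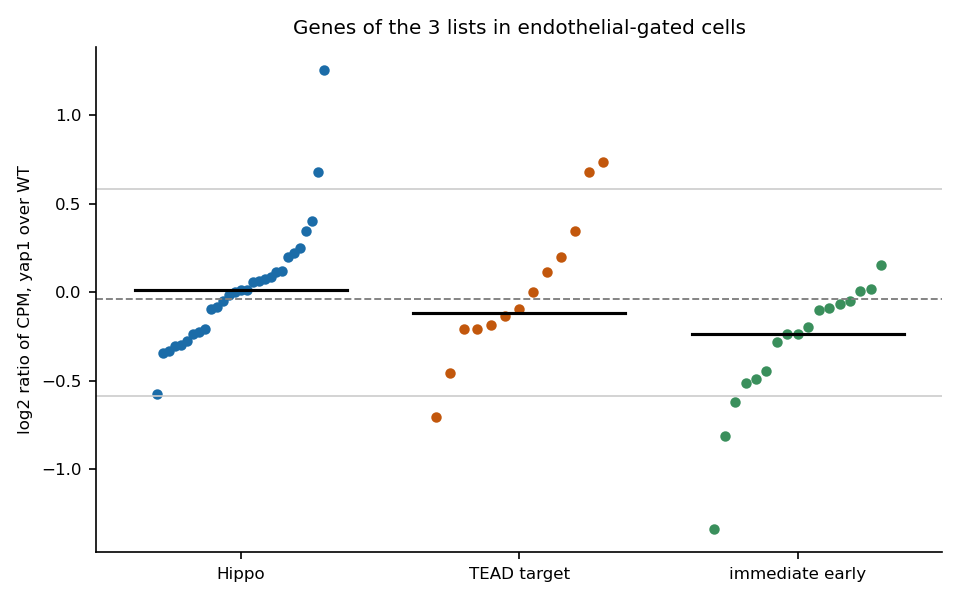
Log2 ratio of yap1 over WT in endothelial-gated cells for each gene with at least 20 UMIs of the Hippo, TEAD target and early response lists, in order of size. Black bars are list medians (0.01, -0.11 and -0.23), the dashed line is the median of all genes (-0.04), grey lines mark 1.5-fold, and Igfbp3, at 0 in yap1, has no point.

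In monocyte-derived macrophages, a myeloid class in which Yap1 had 2 and 3 UMIs, 18 Hippo genes had at least 20 UMIs. The median depth of these cells was 11582 UMIs in WT and 15271 in yap1. Of the 18 genes, 3 were higher and 15 lower, with a median log2 ratio of -0.21 beside -0.02 over all genes. Of all genes in this class, 46.6% were higher in yap1. The same list had 3 higher and 13 lower in plasmacytoid dendritic cells, with a median of -0.21, and 4 and 11 in T cells, with a median of -0.17, both outside the 5 myeloid classes. In Kupffer cells it had 6 higher and 11 lower, at a median of -0.22, and in monocytes 6 and 10, at -0.07. The share of all genes higher was 46.7% in plasmacytoid dendritic cells, 44.9% in T cells, 51.2% in Kupffer cells and 46.2% in monocytes. The medians of all genes in these 4 classes were -0.02, -0.04, 0.01 and -0.02. In monocyte-derived macrophages 1 Hippo gene was past 1.5-fold lower, Rassf1, at 0.623 (0.547 to 0.711), against 7.28% of all genes lower and 4.91% higher. Limd1 had a ratio of 0.730 (0.639 to 0.835), Map4k4 0.778 (0.709 to 0.854) and Mob1b 0.819 (0.687 to 0.979). Of the TEAD targets 8 had enough UMIs, 1 higher and 7 lower, with a median of -0.25, and Crim1 was past 1.5-fold lower with 42 and 33 UMIs, at 0.518 (0.318 to 0.838). Nuak2 had a ratio of 0.834 (0.733 to 0.950), Dock5 0.746 (0.550 to 1.01) and Gadd45a 0.756 (0.487 to 1.18). The early response list there had 7 higher and 11 lower, with a median of -0.10, Egr1 at 0.588 and Klf4 at 0.614.

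Across 22 profiles, the 2 libraries of 11 classes, the levels of the endothelial genes ran together, as described by Pearson's r of log2 of CPM plus 10. The r was 0.97 between Yap1 and Wwtr1, 0.99 between Ctgf and Amotl2 and 0.98 between Tead1 and Ctgf. Lats2 had r of 0.20 with Yap1 and 0.50 with Ctgf. These profiles share libraries and depth, and 2 of the 22 are endothelial, so the values describe a contrast of endothelium with the rest. Among 10444 genes, those most alike in profile were Car8, Parva, S100a16, Fermt2 and Phldb2 for Yap1. For Wwtr1 they were Khdrbs3, Aass, Nfib, Bcar1 and Bok, and for Tead1 Prelp, Gata4, Npdc1, Col4a2 and Adgrf5. For Ctgf they were Afap1l1, Prickle1, Podxl, Timp3 and Flt4, for Cyr61 Stab2, Dysf, Wtip, Tfpi and Adcy4, and for Amotl2 Col4a2, Gja1, Ntn4, Wnt2 and F8. For Lats2 the 5 were Ash1l, Lin7c, Socs4, 9930021J03Rik and Klhl15, at r from 0.87 to 0.91. Ankrd1, with 121 and 74 UMIs in all, was under the minimum of 200 for this ranking.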

How the data were processed

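Droplet libraries of liver nonparenchymal cells were deposited by the authors as whole-number UMI counts per gene and barcode, not normalized, judging from the values. Per the submitters' processing notes Bowtie 0.12.2, Seurat and build mm10 were used, with no roles named. The counter, its use of strand and the rule that chose barcodes are not given in the sources used here.

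Barcodes with 500 UMIs, 200 genes and at most 20% mitochondrial UMIs were kept. Each went to the best-scoring of 18 marker lists with at least 3 markers found. It was called mixed where a list of an unrelated family reached 50% of the best score. Monocyte markers shared with other cells did not count for that. Endothelial subsets needed 2 markers. Where a symbol had 2 rows, the first was used. These gate and subset settings were set after looking at the data, in outputs that also showed the sums of the 8 genes. The members and lists were chosen with earlier results of these data known. Doublets were not removed otherwise, and leaving out the highest Scrublet scores was an alternative.

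UMIs were summed per class and library. Intervals are exact Poisson (levels), Clopper-Pearson (shares) and conditional binomial (ratios). Ratios need 50 cells per library and 20 UMIs, and a count of 0 allows 3. Named besides the 8 genes are up to 4 genes per list and class ranked by the size of the log2 ratio (minimum 50 UMIs), and the 5 most alike in profile (200 UMIs). Others were named after their values were seen. Coordinates are from GENCODE M21 on mm10, promoters from RefSeq. The ratio calculation was tested on simulated counts. Alternatives changed the filter, gate, clustering, scaling, cell weights and depth. Python 3.11.15, scipy 1.17.1 and scanpy 1.11.5 were used.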

Additional observations from a re-analysis of the deposited data

Results flagged for a closer look

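The ratio of Lats2 pointed in opposite directions in 2 classes, each with a counting interval that left out 1. It was 1.98 in NK or ILC1 cells, from 17 and 30 UMIs in 89 and 68 cells, and 0.631 in conventional dendritic cells, from 59 and 42 UMIs in 98 and 99 cells. With classes taken from clusters the conventional dendritic ratio was 0.817, from 101 and 87 UMIs, which is no longer past 1.5-fold, and the NK or ILC1 ratio was 2.28, from 14 and 28 UMIs. The difference between the classes was not tested.

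The barcodes that failed the filters, 422 in WT and 582 in yap1, lay outside every comparison but carried more UMIs of these genes than the 3 that a count of 0 allows. In WT they held 29 UMIs of Wwtr1, 21 of Ctgf, 18 of Tead1, 17 of Lats2, 15 of Cyr61, 10 of Amotl2, 6 of Ankrd1 and 5 of Yap1. In yap1 they held 35 of Wwtr1, 27 of Lats2, 14 of Ctgf, 10 of Amotl2, 9 of Tead1 and 6 of Yap1, with 1 of Cyr61 and 0 of Ankrd1.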

How the results depend on the processing

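The endothelial ratios of Yap1, Wwtr1 and Amotl2 stayed within their counting intervals under all 12 alternatives, with ranges of 0.769 to 1.14, 0.818 to 0.984 and 0.766 to 0.899. Ctgf, at 0.911, was 1.21 under a stricter filter (1000 UMIs, 500 genes, 10% mitochondrial), 0.491 with cells weighted equally, 0.682 thinned to 1000 UMIs and 0.458 without the 5 cells with most UMIs. After seeing the data it was also computed without the yap1 cell with most Ctgf, 0.473, and without cells holding Vwf, Selp or Edn1, 0.735. Cyr61, at 0.614, was 0.308 thinned, 0.321 without the 5 cells, 0.241 without the 1 cell and 0.871 without the Vwf, Selp or Edn1 cells. The pericentral ratio of Ctgf, at 0.273, turned to 3.94 without the latter, from 8 and 22 UMIs, with 16 of the 22 in 1 cell. Tead1 was 0.639 thinned, and Lats2 was 0.748 with equal weights and 0.786 thinned. For Yap1, Tead1, Ctgf and Lats2 the alternatives lay on both sides of 1, and the cause was not tested. In the other classes Lats2 moved past its interval only when thinned, to 0.245 in conventional dendritic cells (8 and 2 UMIs), 0.595 in monocytes, 0.680 in monocyte-derived macrophages and 1.26 in plasmacytoid dendritic cells. With classes from clusters the conventional dendritic ratio was 0.817, inside 1.5-fold. The Hippo list median was -0.15 under the stricter filter, and the TEAD target median 0.12 there and -0.40 thinned. No difference has a replicate check. No paired analysis was possible because each genotype has 1 library.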
